A study of Drosophila melanogaster with 2 samples.

Results

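Mitochondria carry their own ribosome, the mitoribosome, which is built from RNAs encoded in mitochondrial DNA and from proteins encoded in the nucleus, and which makes only a handful of membrane proteins of the respiratory chain. The chain passes electrons from NADH and succinate through complexes I to IV to oxygen, with cytochrome c as the mobile carrier between complexes III and IV, and complex V, the ATP synthase, uses the resulting proton gradient. Nearly all subunits of these complexes are nuclear genes, and in Drosophila many have a second, duplicated copy that is best known for expression in the testis. The mRNAs of these nuclear genes were compared here between whole larvae in which Ck1alpha, a serine/threonine kinase of the casein kinase 1 family, was knocked down and control larvae. Genes were taken by their symbol in the array annotation. They were all symbols of mitoribosomal proteins (mRpL and mRpS with a number) and symbols beginning with ND and a number, CoV, COX, ATPsyn or Cyt-c, with RFeSP, cype, levy, blw, SdhC and SdhD named in addition. The rule found 91 of 12464 named genes, of which 71 encode mitoribosomal proteins and 20 respiratory chain proteins, on 100 probe sets. SdhD stood in the annotation under its older CG number and was therefore not among the 91.

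The RNAi larvae came from Dcg-Gal4 females crossed to UAS-Ck1alphaRNAi males and the control larvae from Dcg-Gal4 females crossed to w1118 males, so both groups carried the driver and the control had no RNAi transgene. Dcg-Gal4 drives expression in the fat body and in hemocytes, while RNA was taken from whole animals, so transcripts of all other tissues were measured along with those of the targeted tissues. Each group was 1 Affymetrix Drosophila 2 array of RNA pooled from 20 mid-third instar larvae. The labels give 6 days of culture for both. By the methods, larvae were collected at the feeding stage, before wandering. The paper describes the Ck1alphaRNAi larvae of its arrays as diabetic and not feeding. The Ck1alphaRNAi cultures were begun a day ahead of those of the controls, which the methods give as an allowance for developmental delay. The pools may therefore have differed in age, and whether they matched in stage was not tested. With 1 array per group, no difference below has a replicate check and no test was possible. Values are MAS5 signals, a linear brightness score of each probe set, and a ratio is the signal in Ck1alphaRNAi larvae over the signal in control larvae. A gene was called detected at a signal of 100 or more on at least 1 array, and different at a ratio of at least 2-fold in either direction. A threshold of 1.2-fold, used below to describe smaller differences, was chosen after the values were seen. Some counts and directions depended on the scaling of the arrays. Many of these are also given after quantile normalization, which gives both arrays the same distribution of signals, or after loess, which removes any trend of the ratio with signal. A count given without such values may also depend on the scaling. The only spread that could be measured was that between probe sets of the same gene on these arrays, which had an SD of 0.41 on the log2 scale over 416 genes. It holds no variation between pools or between repeated arrays.

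Several facts of the whole larvae stand beside all results. The Ck1alpha transcript, named CkIalpha on the array, read 2055 in the RNAi pool and 2665 in the control pool (ratio 0.771). All 6 fat body storage protein genes (median log2 ratio -5.53, summed signal 3667 in Ck1alphaRNAi and 110404 in control larvae) and all 7 salivary glue genes (median -2.69, summed signal 24878 in Ck1alphaRNAi and 119497 in control larvae) had the lower signal in Ck1alphaRNAi larvae. These are genes that normally come on late in larval life. Among the storage protein genes, Fbp2 fell to 60.8, Lsp1alpha to 61.2 and Fbp1 to 88.1 in the RNAi pool. Their control signals were 16099, 11255 and 2289.5, so these genes passed the detection level through the control array alone. At such dim signals the size of their ratios, and with it the median of -5.53, is uncertain. Of 14 detected muscle genes, 12 had the higher signal in Ck1alphaRNAi larvae, 9 after loess (median 0.11, summed signal 234213 in Ck1alphaRNAi and 213972 in control larvae). The labels give the sex of both pools as female, but transcripts of the testis were detected on both arrays, among them Mst77F, a protein of sperm chromatin, at 1138 in Ck1alphaRNAi and 2178 in control larvae. Of 27 testis genes measured, 25 had the lower signal in Ck1alphaRNAi larvae without any filter (median -0.79), where 53.9% of all 12464 named genes did. The 20 detected ones had a summed signal of 9093 in Ck1alphaRNAi and 15291 in control larvae, and 3 of them, sa, topi and dj, passed through the control array alone. The meiotic arrest genes, which switch on the spermatocyte program, were mostly dim. Among them can, nht, comr and aly were below 100 on both arrays, sa had 39.2 in Ck1alphaRNAi and 141 in control larvae, topi had 64.3 in Ck1alphaRNAi and 112 in control larvae, and mia had 469 in Ck1alphaRNAi and 402 in control larvae. The genes mia and achi, with 125 in Ck1alphaRNAi and 101 in control larvae, were the 2 testis genes with the higher signal in Ck1alphaRNAi larvae (3 of the detected ones after loess). The part of stage, sex or tissue makeup in the results below was not tested.

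All 91 genes were detected on both arrays. In Ck1alphaRNAi larvae, 73 gave the higher signal and 18 the lower one. Over all 8921 detected named genes, 47.8% had the higher signal in Ck1alphaRNAi larvae. The differences were small, with a median log2 ratio of 0.12 (1.09-fold) against -0.02 over all detected genes. None of the 91 reached 2-fold higher, where 2.80% of all detected genes did, and 1 gene, Cyt-c-d, was at least 2-fold lower, where 6.88% of all detected genes were. At 1.2-fold, 20 of the 91 (22.0%) were higher, all of them mitoribosomal, a share near the 20.8% over all detected genes. On the lower side the share differed, since 2 of the 91, mRpL18 and Cyt-c-d, were at least 1.2-fold lower (2.20%), where 27.4% of all detected genes were. The mitoribosome, the canonical chain and the duplicated forms of the chain are described in turn.

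**Figure D1:**
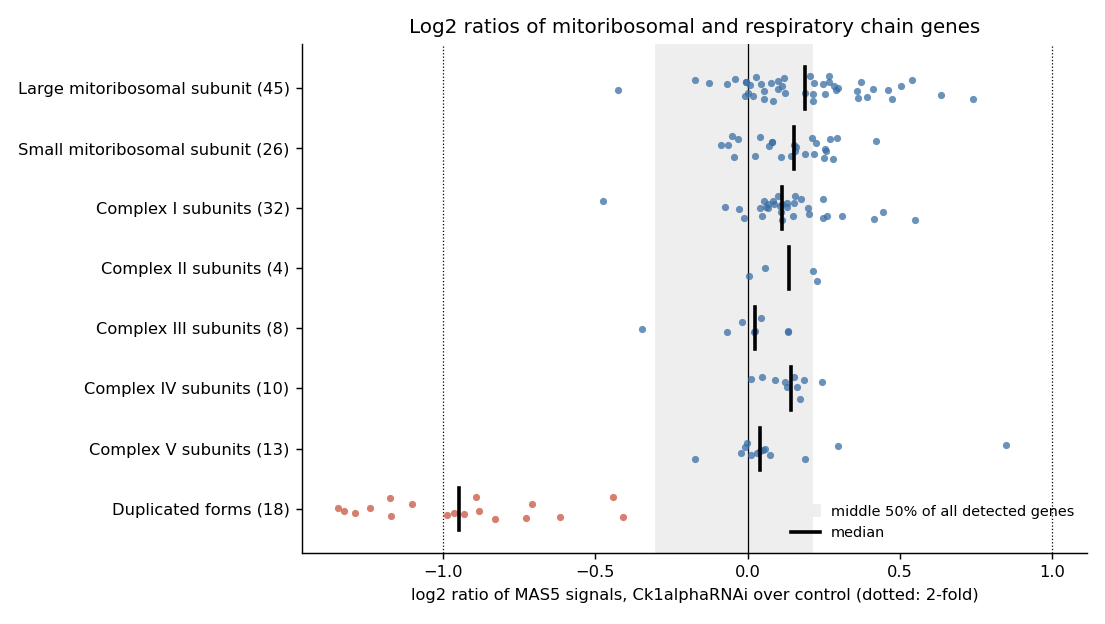
Log2 ratios of MAS5 signals (Ck1alphaRNAi over control, x axis) for each detected gene of the groups on the y axis, with the number of genes in parentheses; the chain complexes hold the genes found by symbol and the other subunits of the same complex. Black bars are medians, the grey band runs between the lower and upper quartiles of all detected genes and dotted lines mark 2-fold. The mitoribosomal groups lie mostly to the right of 0, with medians of 0.19 and 0.15, and the 18 detected duplicated forms lie to the left, with a median of -0.95. Of these 18, 5 passed the filter through the control array alone, which set their direction. Without any filter 23 of 24 forms had the lower signal in Ck1alphaRNAi larvae, where 53.9% of all named genes did.

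Most mitoribosomal genes had a slightly higher signal in Ck1alphaRNAi larvae. The count was 57 higher and 14 lower of 71, with a median log2 ratio of 0.15 (1.11-fold) and ratios between 0.744 and 1.67. The 5279 detected genes outside the mitoribosome and the chain whose mean signal lay in the same range, 254 to 3200, had a median of 0.00, and 50.1% of them were higher. At 1.2-fold, 28.2% of the mitoribosomal genes were higher and 1.41% lower, and of these other genes 21.6% were higher and 21.3% lower. The SD between probe sets of the same gene in this signal range was 0.29 (183 genes), and most single mitoribosomal log2 ratios were smaller than that. Log2 ratios of 15 genes lay above this SD, and 1 gene, mRpL18, lay as far below 0. Across the 71 genes, the log2 ratio had a correlation of r = -0.11 (Spearman rho -0.10) with the log2 mean signal, a description over genes that share both arrays. The count of higher genes ranged between 54 and 61 of 71 when the arrays were rescaled by median centring, quantile normalization or loess.

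The large subunit of the mitoribosome holds the peptidyl transferase center and joins amino acids. It had 36 of 45 genes higher, a median log2 ratio of 0.19, and 16 of the 20 mitoribosomal genes that were at least 1.2-fold higher. These 16 were 35.6% of its genes, where 20.8% of all detected genes were at least 1.2-fold higher. The highest ratio was that of mRpL48, which had 444 in Ck1alphaRNAi and 266 in control larvae (1.67-fold). mRpL27, whose bacterial homolog reaches into the peptidyl transferase center, had 782 in Ck1alphaRNAi and 503 in control larvae (1.55-fold). These were the only mitoribosomal genes at least 1.5-fold different. mRpL45, a protein known in mammals to lie near the tunnel exit where the mitoribosome meets the inner membrane, had 653 in Ck1alphaRNAi and 449 in control larvae (1.46-fold). The next ratios were those of mRpL39 (1.42), mRpL46 (1.39), mRpL54 (1.38), mRpL2 (1.33), mRpL3 (1.31), mRpL47 (1.30), mRpL9 (1.29) and mRpL21 (1.28), of which mRpL2 and mRpL3 are homologs of core proteins of every ribosome. mRpL47 had a second probe set, with 845 in Ck1alphaRNAi and 662 in control larvae, and its ratio of 1.28 was close to the 1.30 of the first.

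At the other end of the large subunit, mRpL18 had 321 in Ck1alphaRNAi and 431 in control larvae, a ratio of 0.744. It was the only mitoribosomal gene at least 1.2-fold lower. Its bacterial homolog binds 5S rRNA. mRpL23, whose bacterial homolog stands at the tunnel exit, had 798 in Ck1alphaRNAi and 900 in control larvae (0.887), and mRpL41 had 582 in Ck1alphaRNAi and 637 in control larvae (0.915). The remaining 6 large subunit genes with the lower signal had ratios between 0.955 and just under 1. Their log2 ratios were smaller than the SD between probe sets given above, as were most other mitoribosomal ones. Among bright probe sets of the large subunit, mRpL33 had 2640 in Ck1alphaRNAi and 2157 in control larvae (1.22), and mRpL13 had 2363 in Ck1alphaRNAi and 2232 in control larvae (1.06). The probe set of mRpL13 is also annotated to CG10602, and its own probe set gave a ratio of 1.07. mRpL12, a stalk protein that in mammals also binds the mitochondrial RNA polymerase, had 1095 in Ck1alphaRNAi and 917 in control larvae (1.19).

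**Figure D2:**
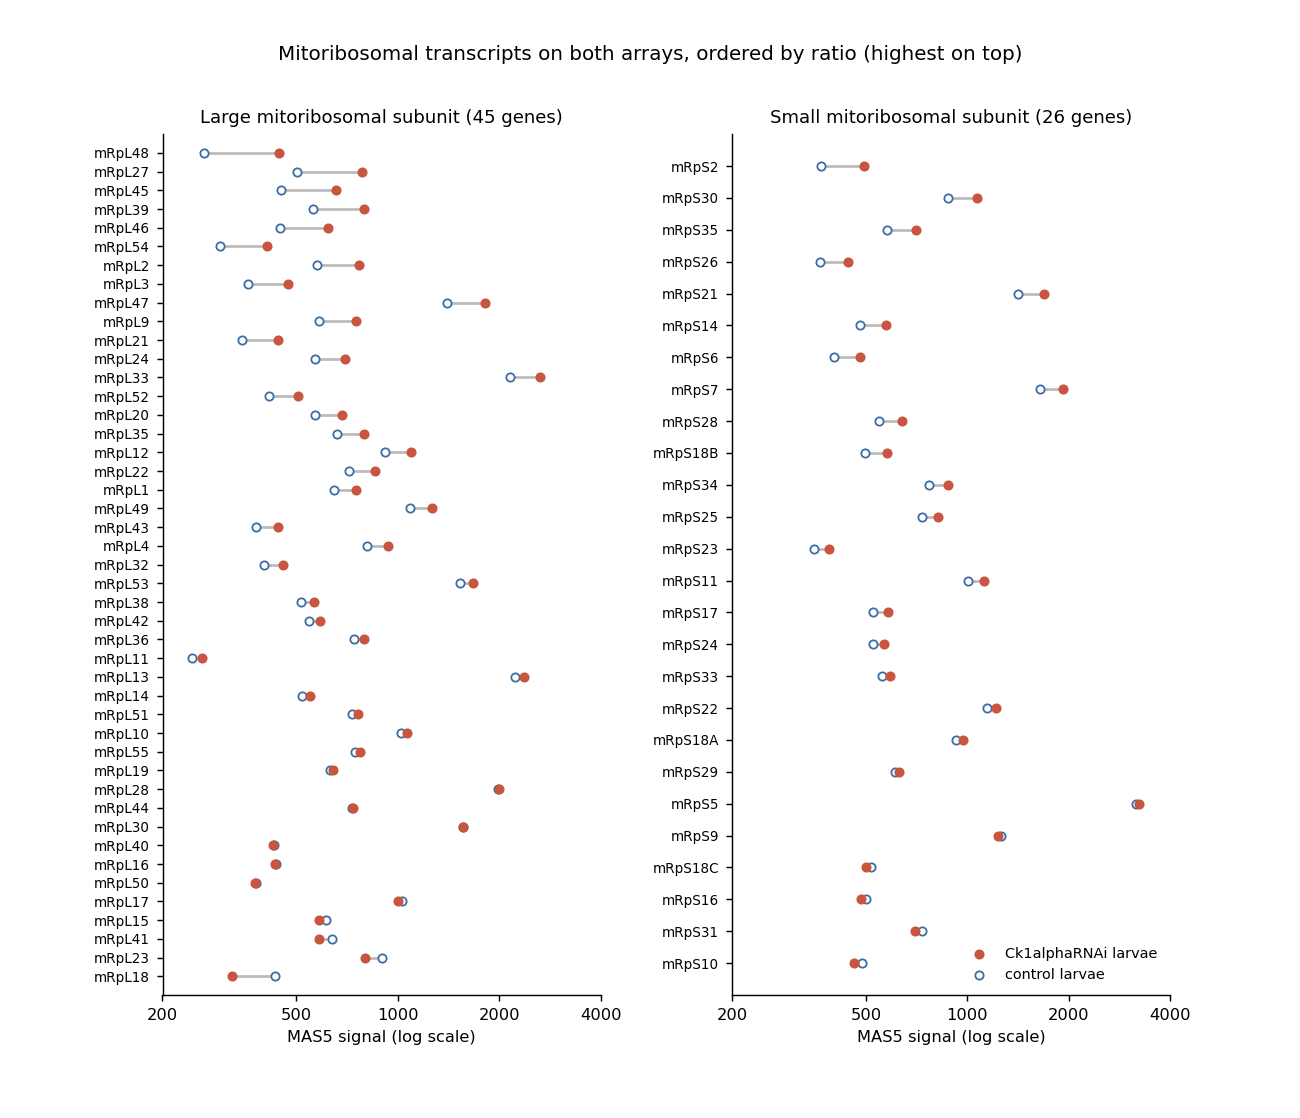
MAS5 signal (x axis, log scale) of each mitoribosomal gene in Ck1alphaRNAi larvae (filled red) and control larvae (open blue), 1 array each, joined by a grey line; left, 45 genes of the large subunit, right, 26 genes of the small subunit, ordered by ratio with the highest on top. Red lies to the right of blue for 36 large and 21 small subunit genes, and mRpL18 at the bottom left is the widest gap in the other direction.

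The small subunit decodes the mRNA. It had 21 of 26 genes higher and a median log2 ratio of 0.15. At least 1.2-fold higher were 4 of its genes (15.4%), where the large subunit had 16 of 45 (35.6%). The share of the small subunit was below the 20.8% over all detected genes and the 21.6% of other genes in the mitoribosome's signal range. The highest ratio was that of mRpS2, with 493 in Ck1alphaRNAi and 368 in control larvae (1.34-fold). mRpS30, a protein without a bacterial counterpart that in mammals sits in the large subunit despite its name, had 1070 in Ck1alphaRNAi and 873 in control larvae (1.23), and mRpS35 had 703 in Ck1alphaRNAi and 579 in control larvae (1.21). The lowest ratios stood close to 1. They were those of mRpS10 (459 in Ck1alphaRNAi and 488 in control larvae, 0.942), mRpS31 (702 in Ck1alphaRNAi and 733 in control larvae, 0.957) and mRpS16 (482 in Ck1alphaRNAi and 500 in control larvae, 0.966). The probe set of mRpS10 is shared with CG34316. Among bright probe sets, mRpS5 had 3225 in Ck1alphaRNAi and 3175 in control larvae (1.02), and mRpS7, like mRpS5 a homolog of a bacterial protein, had 1922 in Ck1alphaRNAi and 1644 in control larvae (1.17). mRpS29, known in mammals as the GTP-binding protein DAP3, had 628 in Ck1alphaRNAi and 610 in control larvae (1.03). A second probe set of mRpS14, shared with CG32533, gave 133 in Ck1alphaRNAi and 79.0 in control larvae (1.69), while its own gave 574 in Ck1alphaRNAi and 481 in control larvae (1.19).

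The old and the added parts of the mitoribosome had close medians. Genes numbered like bacterial ribosomal proteins (up to L36 and S21) had a median log2 ratio of 0.15, with 31 of 41 higher, and genes with higher numbers, most of which encode proteins gained by mitochondria, had 0.16, with 26 of 30 higher. Each class had 10 genes at least 1.2-fold higher. The genes tko and bonsai encode small subunit proteins under names that the symbol rule does not take, and were looked up after the other values were seen. Tko, whose mutant is known for bang sensitivity, had 1346 in Ck1alphaRNAi and 1046 in control larvae (1.29), and bonsai had 839 in Ck1alphaRNAi and 710 in control larvae (1.18). The cytosolic ribosome had 62 of 81 detected genes higher and a median log2 ratio of 0.04, but 14 higher and a median of -0.05 after loess, and 35 higher with a median of -0.00 after quantile normalization. At least 1.2-fold higher were 2 of its 81 genes and at least 1.2-fold lower were 7, where the mitoribosome had 20 of 71 higher and 1 lower, and all detected genes had 20.8% higher and 27.4% lower. The cytosolic set was taken by symbol, without setting duplicated copies apart, and 78 of the 81 were detected on both arrays. Its signals in Ck1alphaRNAi larvae ran from 70.1 to 32404 with a median of 23081, where the median of the mitoribosome was 697, so the sets were not matched in signal.

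The canonical respiratory chain stood close to a ratio of 1. Without Cyt-c-d, the 19 chain genes had ratios between 0.985 and 1.16, 16 of them with the higher signal in Ck1alphaRNAi larvae, and a median log2 ratio of 0.07. Genes outside the mitoribosome and the chain in the same signal range, 2166 to 20948, had nearly the same median, 0.06, and 57.4% of these 1074 genes were higher. The direction depended on the scaling of bright probe sets, since 9 of the 19 were higher and the median was -0.01 after loess, and 13 were higher after quantile normalization. The SD between probe sets of the same gene in this signal range was 0.19 (34 genes), and the log2 ratios of 2 of the 19 genes, SdhC and Cyt-c-p, lay above it. SdhC, a membrane anchor of succinate dehydrogenase (complex II), had 5130 in Ck1alphaRNAi and 4418 in control larvae (1.16), and Cyt-c-p, the cytochrome c of somatic cells, had 11284 in Ck1alphaRNAi and 9836 in control larvae (1.15).

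Complex I, the NADH dehydrogenase, was represented by ND75, ND42 and ND23. ND75, which carries iron-sulfur clusters in the matrix arm, had 2229 in Ck1alphaRNAi and 2103 in control larvae (1.06). ND42 had 4975 in Ck1alphaRNAi and 4639 in control larvae (1.07), and ND23, another iron-sulfur subunit, had 5545 in Ck1alphaRNAi and 5336 in control larvae (1.04). The log2 ratio of ND23 was -0.01 after quantile normalization and -0.02 after loess, so its direction depended on the scaling. For complex III, the Rieske iron-sulfur protein RFeSP had 5823 in Ck1alphaRNAi and 5894 in control larvae (0.988), and a second probe set lay at background with 20.2 in Ck1alphaRNAi and 29.7 in control larvae. All 7 genes of complex IV, the cytochrome c oxidase, had the higher signal in Ck1alphaRNAi larvae, with a median log2 ratio of 0.13, though only 5 of them after loess. The 3 highest were levy, with 15849 in Ck1alphaRNAi and 14071 in control larvae (1.13), CoVb, with 16277 in Ck1alphaRNAi and 14557 in control larvae (1.12), and CoVIII, with 14725 in Ck1alphaRNAi and 13239 in control larvae (1.11). Levy encodes the VIa subunit, whose loss is known to shorten the life of flies. The lowest were cype, with 12433 in Ck1alphaRNAi and 12324 in control larvae (1.01), CoVIb (1.03) and CoVa (1.09).

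CoVIIc was the only one of the 91 genes with detected probe sets of opposite direction more than 0.5 apart on the log2 scale. Its bright probe set had 14124 in Ck1alphaRNAi and 12898 in control larvae (1.10), whereas a dim one had 57.1 in Ck1alphaRNAi and 118 in control larvae (0.486). The dim one passed the detection level through the control array alone. Complex V, the ATP synthase, was level. Of its 6 genes, 4 had the higher signal in Ck1alphaRNAi larvae, 2 after quantile normalization and none after loess, and the median log2 ratio was 0.02, -0.01 after quantile normalization and -0.06 after loess. The catalytic subunit ATPsyn-beta had 19868 in Ck1alphaRNAi and 18866 in control larvae (1.05), and blw, which encodes its partner subunit alpha, had 20895 in Ck1alphaRNAi and 21002 in control larvae (0.995). ATPsyn-gamma, the rotating stalk, had 14810 in Ck1alphaRNAi and 15042 in control larvae (0.985), with 1.04 on its second probe set. ATPsyn-b, ATPsyn-d and ATPsyn-Cf6, parts of the stator that holds the catalytic head, had ratios of 1.04, 1.02 and 1.01, the last 2 on probe sets shared with other genes.

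Most complex I genes, and several of the other complexes, stand in the annotation under CG numbers or older names and were added by their current symbols. Of 50 such subunits measured, 49 were detected and 41 of these were higher in Ck1alphaRNAi larvae, where 47.8% of all detected genes were. The median log2 ratio was 0.11, with 31 higher and a median of 0.05 after loess. Other genes in the signal range of the chain genes found by symbol, 2166 to 20948, had 57.4% higher and a median of 0.06. None of the 49 was at least 2-fold different, where 2.80% of all detected genes were higher and 6.88% lower by that much. Complex I had 25 of 29 detected genes higher (22 after loess) and a median of 0.13. Its highest ratio was that of ND-19, with 3544 in Ck1alphaRNAi and 2419 in control larvae (1.47), followed by ND-15 (1.36, on a probe set with several gene names) and ND-B14.5A (1.34). Its lowest, ND-B12, was dim, with 93.4 in Ck1alphaRNAi and 130 in control larvae (0.720). In complex II, SdhD, the second membrane anchor, had 4110 in Ck1alphaRNAi and 3512 in control larvae (1.17). The catalytic subunits SdhA and SdhB of the same complex had log2 ratios of 0.06 and 0.01. In complex III, UQCR-Q had 1037 in Ck1alphaRNAi and 1320 in control larvae (0.786), the lowest ratio among canonical subunits with at least 100 on both arrays, while the other 6 lay between 0.954 and 1.10. In complex V, the epsilon subunit sun was dim, with 128 in Ck1alphaRNAi and 71.2 in control larvae (1.80), and ATPsynC, which forms the rotor ring, had 11326 in Ck1alphaRNAi and 12755 in control larvae (0.888). ND-B8 was below 100 on both arrays. The genes ND-MWFE, UQCR-11, UQCR-6.4L, COX7CL, mRpL34 and mRpL37 had no probe set matched by name.

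**Figure D3:**
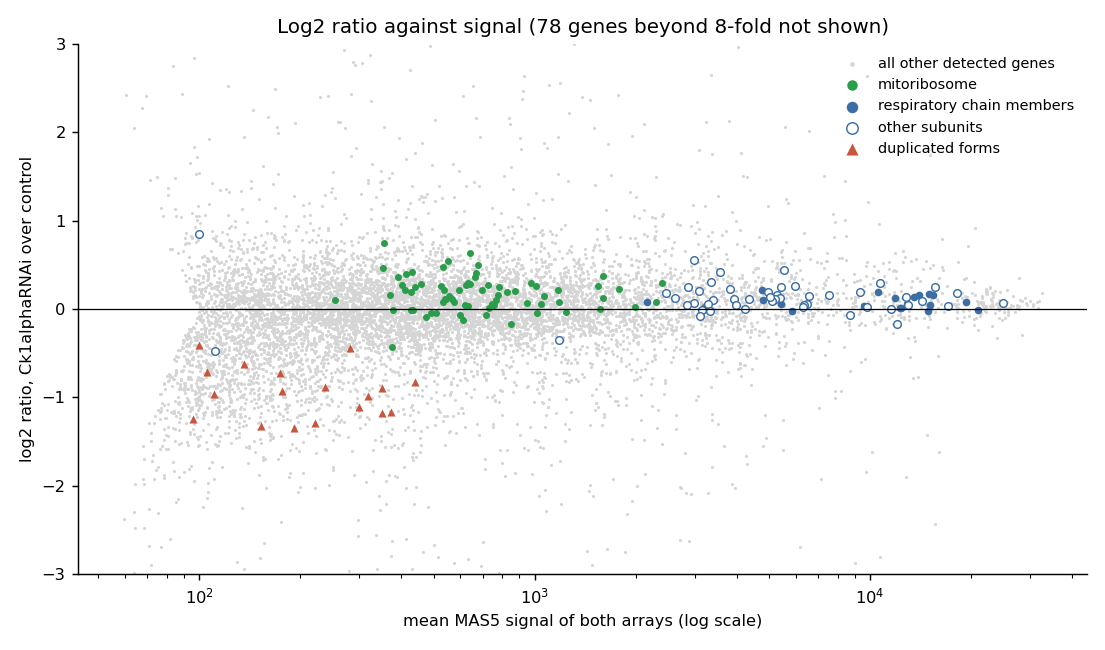
Log2 ratio (Ck1alphaRNAi over control, y axis) against the mean MAS5 signal of both arrays (x axis, log scale) for all detected genes (grey), mitoribosomal genes (green), canonical chain genes found by symbol (blue), other subunits (open blue) and duplicated forms (red triangles). The green points lie mostly above 0 in the middle of the signal range, the blue points near 0 at high signals, and the triangles below 0 at low signals, where the grey cloud is widest.

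The duplicated forms of the chain mostly had the lower signal in Ck1alphaRNAi larvae. Cyt-c-d, the distal cytochrome c gene, is needed in the male germ line for the caspase activity that strips cytoplasm from maturing spermatids. It had 215 in Ck1alphaRNAi and 485 in control larvae (2.26-fold lower, log2 ratio -1.18), whereas its neighbor Cyt-c-p had the ratio of 1.15 given above. A further 23 genes carry the name of a chain subunit with an L added, and were taken by that name, not by their values. Of the 24 forms, 23 had the lower signal in Ck1alphaRNAi larvae without any filter, where 53.9% of all 12464 named genes did, and their median log2 ratio was -0.95. After the filter 18 remained, all with the lower signal in Ck1alphaRNAi larvae, where 52.2% of detected genes had it. Of these 18, 5 passed through the control array alone, so the filter set their direction and the count of 18 adds nothing to the unfiltered one. Loess turned 1 form, ND-B14.5AL, to the higher side. At least 2-fold lower were 7 of the 18, where 6.88% of all detected genes were, and 2 of these 7, ND-49L and ND-20L, passed through the control array alone. Detected genes outside the mitoribosome and the chain with a mean signal in the same range, 95.7 to 440, had a median of -0.08, and of these 4023 genes 42.6% were higher and 8.25% at least 2-fold lower. In whole larvae, fewer cells of a type and less RNA per cell cannot be told apart, and 25 of the 27 testis genes, given above, also had the lower signal without any filter. Their part in the result was not tested.

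In complex I, ND-49L had 87.3 in Ck1alphaRNAi and 219 in control larvae (2.51-fold lower), ND-20L had 56.8 in Ck1alphaRNAi and 134 in control larvae (2.37-fold lower) and ND-B14.5AL had 85.7 in Ck1alphaRNAi and 114 in control larvae (1.33-fold lower). All of these were under 100 in Ck1alphaRNAi larvae. ND-51L1 (48.2 in Ck1alphaRNAi and 95.1 in control larvae), ND-51L2 (41.3 in Ck1alphaRNAi and 60.4 in control larvae) and ND-24L (33.8 in Ck1alphaRNAi and 69.6 in control larvae) were under 100 on both arrays. Their signals in Ck1alphaRNAi larvae were also below 53.3, the brightest of 17 tag control probe sets on that array, so that they were at least 1.78-fold, 1.13-fold and 1.31-fold lower. In complex II, SdhBL had 128 in Ck1alphaRNAi and 314 in control larvae (2.45-fold lower) and SdhCL had 80.3 in Ck1alphaRNAi and 131 in control larvae (1.63-fold lower). SdhAL, with 10.8 in Ck1alphaRNAi and 87.9 in control larvae, was at least 1.65-fold lower against the same tag controls. In complex III, Cyt-c1L had 246 in Ck1alphaRNAi and 456 in control larvae (1.86-fold lower), UQCR-11L had 213 in Ck1alphaRNAi and 424 in control larvae (1.99-fold lower) and UQCR-14L had 107 in Ck1alphaRNAi and 165 in control larvae (1.53-fold lower).

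Of complex IV, 7 duplicated forms were measured. COX5BL had 108 in Ck1alphaRNAi and 276 in control larvae (2.54-fold lower), the lowest ratio among the 18 detected forms, and COX4L had 230 in Ck1alphaRNAi and 518 in control larvae (2.25-fold lower). COX6AL had 74.8 in Ck1alphaRNAi and 146 in control larvae (1.95-fold lower), COX6CL had 121 in Ck1alphaRNAi and 232 in control larvae (1.91-fold lower) and COX7AL had 131 in Ck1alphaRNAi and 217 in control larvae (1.66-fold lower). COX6AL2, on a probe set shared with Ir75d, had 40.6 in Ck1alphaRNAi and 53.8 in control larvae. Against the tag controls it was at least 1.01-fold lower, a bound close to level. COX7AL2 (39.5 in Ck1alphaRNAi and 29.2 in control larvae) was below the brightest tag control of each array, 53.3 in Ck1alphaRNAi and 33.1 in control larvae, and gives no fold. COX7AL2 was the only form with the higher signal in Ck1alphaRNAi larvae. In complex V, ATPsynbetaL had 190 in Ck1alphaRNAi and 408 in control larvae (2.15-fold lower), ATPsynCF6L had 167 in Ck1alphaRNAi and 308 in control larvae (1.84-fold lower), ATPsynGL had 317 in Ck1alphaRNAi and 564 in control larvae (1.78-fold lower) and ATPsynepsilonL had 239 in Ck1alphaRNAi and 325 in control larvae (1.36-fold lower).

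The subunits after which the detected forms are named did not share this direction. Leaving out sun, which was dim, 16 such subunits were measured. Their log2 ratios lay between -0.07 and 0.42 with a median of 0.14, and 15 were higher in Ck1alphaRNAi larvae (11 after loess). Among genes outside the mitoribosome and the chain with bright signals, 2166 to 20948, the share of higher genes was 57.4%. In the signal range of the detected forms, 95.7 to 440, that share was 42.6%. The forms and the subunits they are named after were thus not matched in signal. For instance, CoVb had a ratio of 1.12 and COX5BL a ratio of 0.393, and ATPsyn-beta had 1.05 and ATPsynbetaL 0.465. ND-49 had 1.11 and ND-49L 0.399, and SdhC had 1.16 and SdhCL 0.613. Both ND-49L and SdhCL passed the detection level through the control array alone, so the filter set their direction. In the pair of sun and ATPsynepsilonL, the ratios were 1.80 and 0.735.

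**Figure D4:**
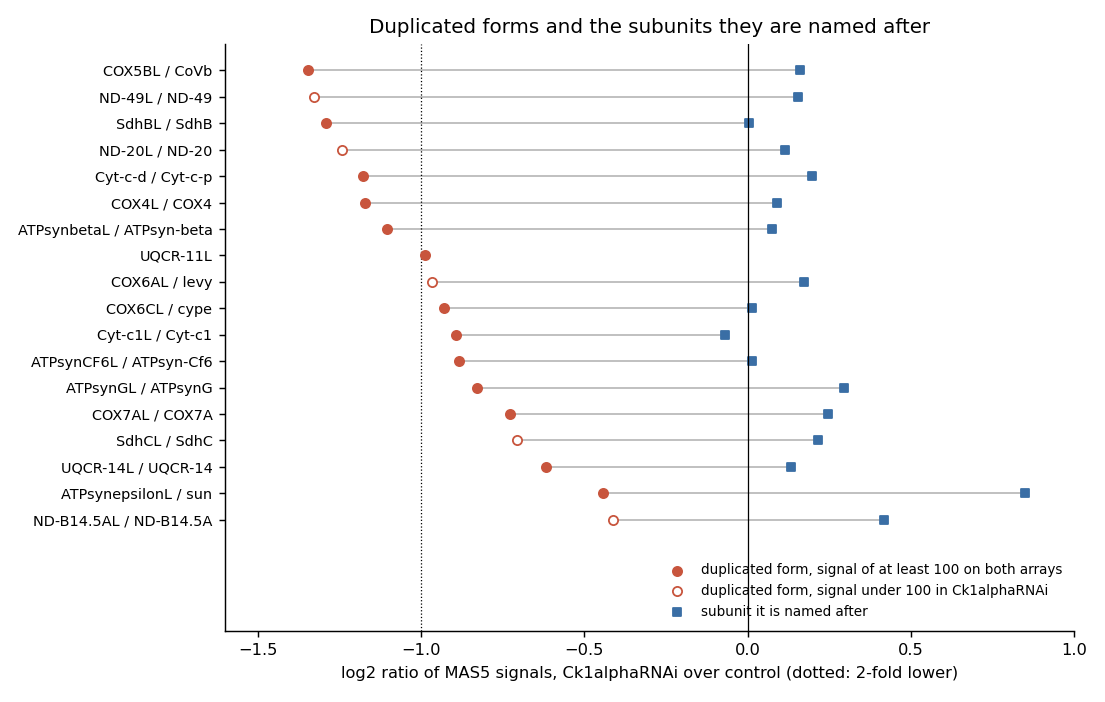
Log2 ratios (Ck1alphaRNAi over control, x axis) of the 18 detected duplicated forms (red circles, open where the signal in Ck1alphaRNAi larvae was under 100) and of the subunits they are named after (blue squares), 1 pair per row. The circles lie between -1.35 and -0.41 and the squares between -0.07 and 0.85; UQCR-11L has no square because UQCR-11 was not matched.

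Other nuclear genes of the mitochondrion were set beside these groups. Genes for the upkeep, transcription and translation of mitochondrial DNA had 9 of 13 higher and a median log2 ratio of 0.12, and 5 of them were at least 1.2-fold higher, where 20.8% of all detected genes were. The highest was bsf, an RNA-binding protein that stabilizes mitochondrial mRNAs, with 485 in Ck1alphaRNAi and 355 in control larvae (1.37). PolrMT, the mitochondrial RNA polymerase, had 354 in Ck1alphaRNAi and 263 in control larvae (1.35). The lowest was the elongation factor mEFTs, with 814 in Ck1alphaRNAi and 919 in control larvae (0.886). A list of protein import genes and chaperones also held Marf, Opa1, Drp1 and Mitofilin, which act in mitochondrial shape. It had 10 of 18 higher and a median of 0.05. After loess 8 were higher with a median of -0.01, and after quantile normalization 9 were higher with a median of -0.00. Its ratios lay between those of Tom20, a receptor of the outer membrane (1.28), and Tim13, a chaperone between the membranes, with 91.6 in Ck1alphaRNAi and 159 in control larvae (0.578). Genes of the tricarboxylic acid cycle had 7 of 13 higher and a median of 0.01, between Fum1 (1.08) and Scsalpha1 (0.775). After loess 2 were higher with a median of -0.06, and after quantile normalization 4 were higher and 7 lower with a median of -0.00. Of the 13, 2 genes, SdhA and SdhB, are also complex II subunits.

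Assembly factors of the chain had 6 of 10 higher, where 47.8% of all detected genes were, and a median of 0.07. The median was 0.01 after loess and 0.04 after quantile normalization. Their ratios lay between Cox11, which delivers copper to complex IV (1.33), and Bcs1, which inserts the Rieske protein into complex III (0.727). The subunits ATPsynO and ND-ACP were counted in that list as well. Carriers and porin had 5 of 8 higher and a median of 0.19 (0.15 after loess and 0.16 after quantile normalization), between Bmcp (1.31) and Ant2 (0.893). Known regulators of mitochondrial genes were all near 1, with 5 of 7 higher, a median of 0.06 and ratios between foxo (0.936) and ewg (1.14), the fly relative of mammalian NRF1. The PGC-1 homolog srl had 359 in Ck1alphaRNAi and 344 in control larvae (1.04). None of the genes in these 6 lists was at least 2-fold different, where 2.80% of all detected genes were higher and 6.88% lower by that much. The 287 other detected genes annotated to the mitochondrion had a median of -0.01, and 48.4% were higher. No probe set was named for any of 15 transcripts of mitochondrial DNA, so the RNAs that the mitoribosome translates were not analysed here.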

How the data were processed

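RNA of 1 pool of Ck1alphaRNAi larvae and 1 pool of control larvae was hybridized by the authors to Affymetrix Drosophila 2 arrays. The deposited values are MAS5 signal intensities per probe set (MAS5 version 5 in the submitters' processing notes), already scaled so that the mean without the lowest and highest 2% of the 18952 probe sets was 500.018 on both arrays. The labels name Trizol for the extraction and the study's methods a kit. For the genome build, nothing was given in the sources used here. The authors' fold change column was not used. A second deposited table held the same intensities.

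Each gene was represented by its probe set of highest mean signal, and older symbols were updated with RefSeq's gene table for Release 6 of the genome. Log2 ratios were taken without a pseudocount. Detection needed a signal of 100 on at least 1 array. The members and the gene lists were chosen with earlier results of these data known. Genes were named by a rule: in each subgroup the 3 highest and 3 lowest ratios, the 2 of highest mean signal, each gene at least 2-fold different, and each with detected probe sets of opposite direction more than 0.5 apart, all duplicated forms, and the highest and lowest of each other list. Other genes in the text were added after their values were seen. With 1 array per group no test was run, and the number of arrays limits the precision. The scripts were tested on simulated data. Analyses used Python 3.11.15, pandas 2.3.3, numpy 2.4.6 and, for loess with a span of 0.3, statsmodels 0.14.6.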

Additional observations from a re-analysis of the deposited data

How the results depend on the processing

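Up to 9 other settings were tried: loess, a pseudocount of 16, median centring, quantile normalization, averaging a gene's detected probe sets by their median, leaving out probe sets that can bind several transcripts, a detection level of 200, no filter, and the second value table. The results on the mitoribosome, the duplicated forms and the added subunits were chosen after seeing the data. The median log2 ratio of all 91 genes stayed between 0.09 and 0.15, and that of the mitoribosome between 0.15 and 0.18. The number of the 91 genes with the higher signal in Ck1alphaRNAi larvae lay between 63 and 79, with 63 after loess and 63 of the 80 genes left without probe sets that can bind several transcripts. Without those probe sets, 2 genes were at least 2-fold lower, Cyt-c-d and CoVIIc, where CoVIIc was read from its dim probe set. The median of the duplicated forms was -0.82 after quantile normalization and -0.82 after loess. The other 96 of 99 values of these results moved by less than 0.1 (log2) or less than 1.5 times for counts. No subgroup median moved by more than 0.1, but those of complexes III and V lie so near 0 that their sign changed with the scaling. No paired analysis was possible because each group is 1 array, and none could be left out. The number of mitoribosomal genes at least 1.2-fold higher lay between 17 and 25. Dim probe sets, among them most duplicated forms, limit the size of the differences that can be read.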
